A study of Sus scrofa with 30 samples.

Results

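Coverage by 2 histone marks was followed through the pig oocyte and early embryo at genes whose products the egg stores or uses to control meiosis. The 8 genes were NLRP5, NLRP9, TLE6, PADI6, MOS, WEE2, ZAR1 and BTG4, out of 19484 protein-coding genes on chromosomes 1 to 18 and X. They were listed by name, and all 8 were found in the annotation. The list was chosen with earlier results of these data known, so counts set beside shares of all genes are a description. For each library the length covered by peaks, in base pairs (bp), was taken within 5 kb of either end of each gene, and both windows were joined. Strand was missing from the annotation, so a gene's lower and upper end are told apart by coordinate and not as start and end of transcription.

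Ultra-low-input native ChIP-seq (ULI-NChIP-seq), in which unfixed chromatin of small pools is pulled down by antibody, was done for trimethylated lysine 4 of histone H3 (H3K4me3) and trimethylated lysine 27 (H3K27me3). Each of the 15 groups had 2 libraries. H3K4me3 was measured in 4-cell embryos labelled siKDM5BC, a knockdown of the H3K4 demethylases KDM5B and KDM5C, and in germinal vesicle (GV) oocytes, metaphase II (MII) oocytes and 1-cell, 2-cell, 4-cell, 8-cell, morula and blastocyst embryos without treatment in their labels. H3K27me3 was measured in MII oocytes and in 2-cell, 4-cell, 8-cell, morula and blastocyst embryos. The siKDM5BC libraries were set against the 4-cell group of the stage series, which was submitted earlier. No library is labelled as a control siRNA, so the part of siRNA handling or of the separate submission was not tested. Strain, age, the way the siRNA was given and the number of cells in a pool are not stated in the labels, nor is KDM5B or KDM5C loss itself measured by these lists. Whether both libraries of a group were collected separately is not labelled, so p-values here reflect spread among libraries that may be technical.

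H3K4me3 marks active and poised promoters, and in oocytes it can also lie in wide domains away from them. H3K27me3 is laid down by Polycomb complexes at silenced genes. NLRP5, TLE6 and PADI6 encode proteins of the subcortical maternal complex or of the cytoplasmic lattices it belongs to, which in mice are needed for the first cleavages. MOS and WEE2 encode kinases of meiotic arrest, and ZAR1 and BTG4 encode regulators of stored maternal mRNA. Transcripts of such genes accumulate while the oocyte grows and are degraded around genome activation.

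The covered length of whole H3K4me3 libraries ran from 31.6 to 179 Mb, and that of H3K27me3 libraries from 1.28 to 109 Mb. The lists hold no read totals, so depth is unknown. Peak length in a pool of cells cannot tell fewer marked cells apart from less mark per cell. H3K4me3 lay at 6 of 8 oocyte identity markers in both blastocyst libraries (13.7 to 14.2 kb summed per library, ZP2 and ZP3 at 0) and at 6 of 8 in both GV libraries (18.8 to 30.4 kb, none at 0). Trophectoderm and blastocyst markers had peaks at 14 of 15 in both blastocyst libraries (97.5 to 97.9 kb) and at 13 of 15 in both GV libraries (61.1 to 77.4 kb), with NANOG at 0 in both groups. Of 14 cumulus and granulosa cell markers, 6 had peaks in both MII libraries (10.6 to 19.7 kb) and 7 in both GV libraries (22.7 to 33.0 kb), and CYP19A1 was at 0 in both groups. In embryos, 6 had peaks in both 2-cell libraries, 10 in both morula libraries (31.0 to 31.1 kb) and 10 in both blastocyst libraries (30.5 to 35.0 kb). Of 8 sperm markers, 7 had peaks in both 1-cell libraries (17.4 to 28.9 kb summed) and 4 in both MII libraries (9.58 to 12.3 kb). PRM1, PRM2 and TNP2 were at 0 in MII oocytes, and TNP1 was at 0 in 1-cell embryos. Peaks in both libraries were found at 6 sperm markers in 2-cell, 2 in 4-cell and 7 in 8-cell embryos. The part of other cells in the values below was not tested.

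All positions are those of the pig build susScr11. NLRP9 lies on chromosome 6 from 59941318 to 59974129, and no end of another coding gene falls inside its windows. NLRP5 lies on the same chromosome from 60375670 to 60418908, between an end of NLRP8 at 3.61 kb and an end of ZNF787 at 3.48 kb. PADI6 lies on chromosome 6 from 75969855 to 75987097, with an end of PADI4 at 3.58 kb from its lower end and an end of RCC2 at 1.17 kb beyond its upper end. TLE6 lies on chromosome 2 from 75537641 to 75550676, with an end of TLE2 at 829 bp from its lower end and a lncRNA that begins 43 bp beyond its upper end. MOS, which spans 1675 bp, lies on chromosome 4 from 75739402 to 75741076. WEE2 lies on chromosome 18 from 8171133 to 8196836, with an end of SSBP1 at 3.15 kb from its lower end, and inside a lncRNA (LOC100513188) whose ends lie 3.11 kb beyond the lower and 3.38 kb beyond the upper end. ZAR1 lies on chromosome 8 from 38386520 to 38391618, with an end of SLC10A4 at 772 bp from its lower end and an end of FRYL at 4.16 kb beyond its upper end. BTG4 lies on chromosome 9 from 39253116 to 39281327 and overlaps C9H11orf88, one end of which is 2.44 kb from its upper end. The windows spanned 20002 bp at 6 of the genes, 15099 bp at ZAR1 and 11675 bp at MOS.

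The stage series asked how H3K4me3 at these genes changes from the oocyte through fertilisation and genome activation to the blastocyst. All differences between stages were tested together by the moderated F of limma over 18229 genes with Benjamini-Hochberg (BH) adjustment at 0.05. Of the 8 genes, 7 varied across the 8 stages, where 57.3% of all genes tested did. The exception was NLRP5 (adjusted p = 0.120).

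NLRP9, an NLRP family gene of the oocyte, carried H3K4me3 mainly before fertilisation. It had 2355 and 2112 bp in GV oocytes, 1033 and 1605 bp in MII oocytes, 342 and 0 bp in 1-cell embryos, 283 and 0 bp in 2-cell embryos and 705 and 0 bp in 4-cell embryos, and it had no peak in any 8-cell, morula or blastocyst library. All 4 oocyte libraries lay above all 12 embryo libraries of the stage series. In the oocytes the peaks lay over the lower end, for example from -1551 to 803 bp in GV replicate 1, counting from that end into the gene. NLRP9 fell by 1319 ± 304 bp in blastocysts (0 ± 0 bp, SD) relative to MII oocytes (1319 ± 404 bp; ± SE of limma for the difference, adjusted p = 0.00289). It also fell by 1148 bp in 1-cell embryos relative to MII oocytes (adjusted p = 0.0233). A peak in all 4 oocyte libraries with none from 8-cell to blastocyst was found at 96 of 19484 coding genes (0.493%), a pattern picked after the values of NLRP9 were seen.

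NLRP5, also known as MATER, had 6840 and 5069 bp in GV oocytes, 3295 and 4375 bp in MII oocytes, 1144 and 7041 bp in 1-cell embryos, 3619 and 4405 bp in 2-cell embryos, 2441 and 1092 bp in 4-cell embryos, 1585 and 1873 bp in 8-cell embryos, 2479 and 2389 bp in morulae and 2128 and 2686 bp in blastocysts. The 1-cell libraries differed by more than the 8-cell to blastocyst libraries did. The place of the peaks differed between stages. A peak within 500 bp of the lower end was present in 2 of 2 GV libraries, 2 of 2 MII libraries and 1 of 2 1-cell libraries, and in no library of a later stage. From the 8-cell stage on, every library instead had a narrow peak inside the gene, at 3722 to 4709 bp in blastocyst replicate 1, with the authors' fold enrichment between 3.66 and 6.86. The peak beyond the upper end lay at the ZNF787 end, within 500 bp of which 15 of 18 H3K4me3 libraries had a peak. When only the bases nearer to an end of NLRP5 than to any other coding gene were counted, NLRP5 also varied across stages (adjusted p = 0.0204), a count added after the data were seen.

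TLE6, a subunit of the subcortical maternal complex, was lowest at the 4-cell stage. It had 2260 and 2335 bp in GV oocytes, 702 and 1058 bp in MII oocytes, 3231 and 7449 bp in 1-cell embryos, 6642 and 5428 bp in 2-cell embryos, 728 and 0 bp in 4-cell embryos, 1621 and 4091 bp in 8-cell embryos, 2570 and 2467 bp in morulae and 3379 and 4276 bp in blastocysts. The 2-cell and 4-cell libraries did not overlap. No library had a peak within 500 bp of the lower end, while 14 of 18 had one at the upper end, where the lncRNA also begins. In 1-cell and 2-cell embryos the peaks lay to both sides of that end, as from 6513 to 9456 bp and from 13836 to 15987 bp in 2-cell replicate 1.

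PADI6, the peptidylarginine deiminase of the oocyte lattices, had 997 and 1049 bp in GV oocytes, 0 and 1579 bp in MII oocytes, 3539 and 3221 bp in 1-cell embryos, 4932 and 2457 bp in 2-cell embryos and 0 and 952 bp in 4-cell embryos, and none in the 8-cell, morula and blastocyst libraries. The 4 libraries of the 1-cell and 2-cell stages lay above all others of the stage series. Position changed here as well: the GV peaks lay over the lower end (-244 to 752 bp and -506 to 542 bp), whereas the widest peaks of 1-cell and 2-cell embryos lay inside the gene (1685 to 4491 bp in 1-cell replicate 1, 1363 to 5249 bp in 2-cell replicate 1). PADI6 and NLRP9 were the 2 of 8 genes with no peak from 8-cell to blastocyst, as were 7.90% of all coding genes. No PADI6 or NLRP9 peak in any of the 18 libraries reached a −log10 q of 3, so both patterns rest on weak peaks.

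**Figure D1:**
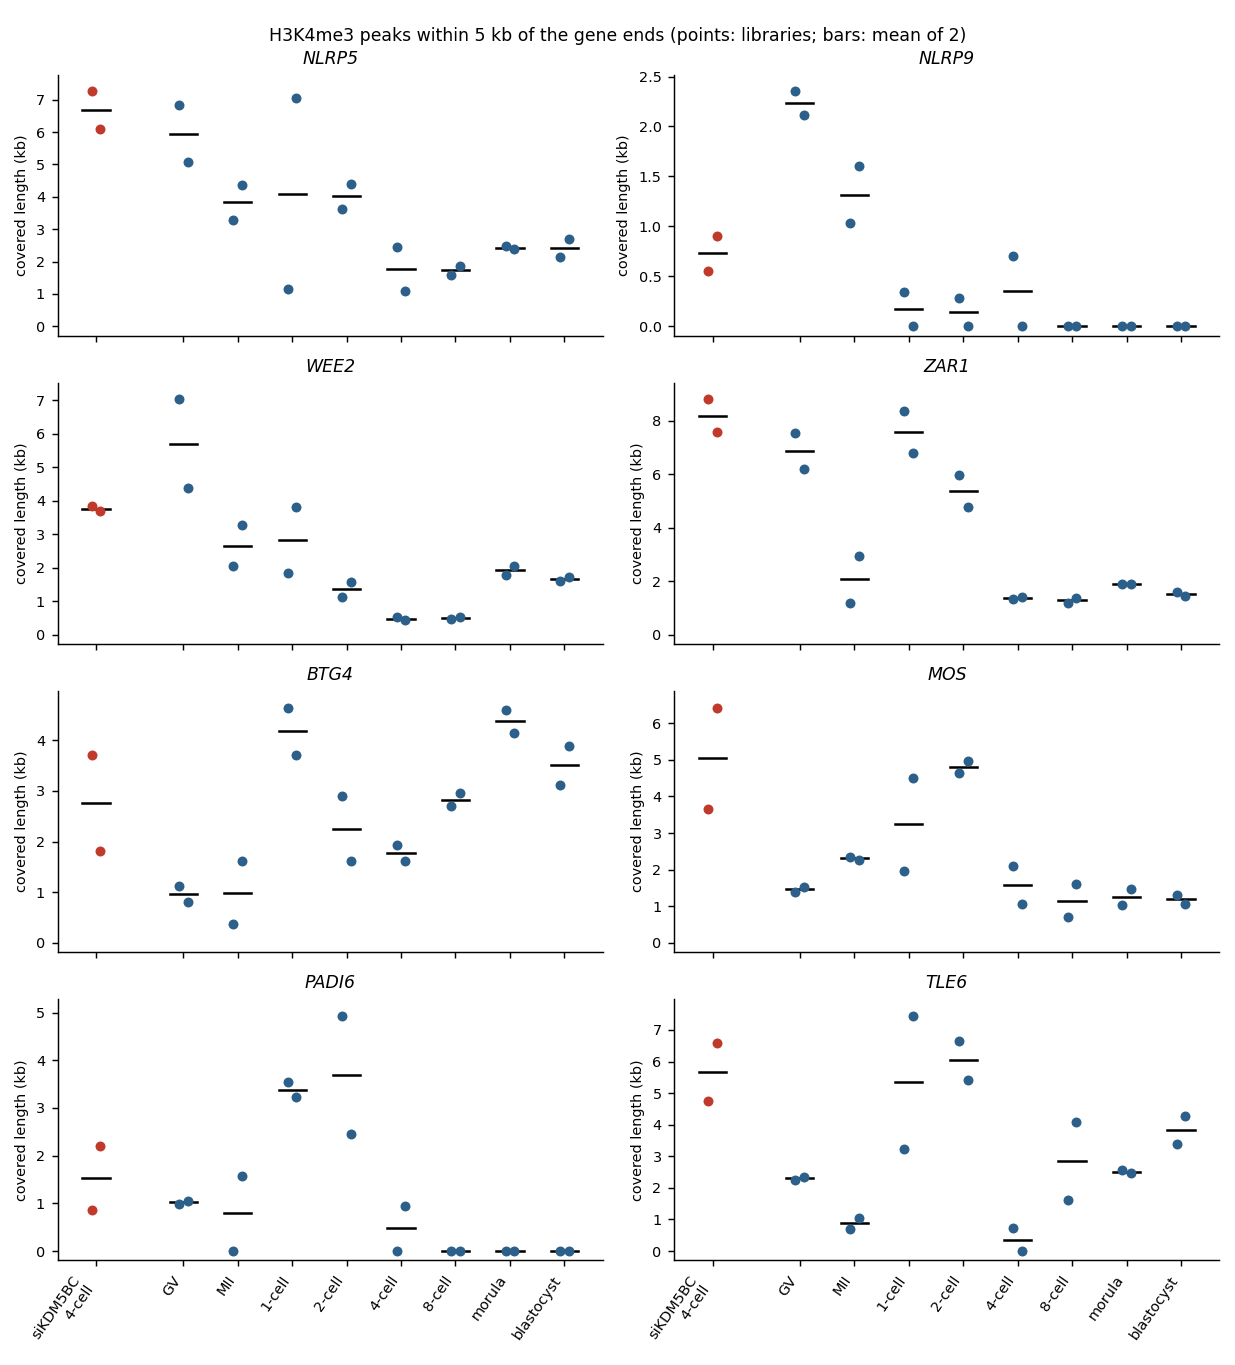
H3K4me3 covered length in kb within 5 kb of the gene ends, for each of the 8 genes and each library (points; red, siKDM5BC 4-cell; blue, stages in order), with the mean of 2 libraries as a bar. NLRP9 is highest in the GV oocyte points (2355 and 2112 bp), PADI6 is at 0 from the 8-cell stage on, and the siKDM5BC points of ZAR1 (8799 and 7569 bp) stand above the 4-cell points (1319 and 1397 bp). The vertical scales differ between panels.

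WEE2, the oocyte kinase that inhibits CDK1, had 7025 and 4379 bp in GV oocytes, 2053 and 3258 bp in MII oocytes, 1836 and 3807 bp in 1-cell embryos, 1108 and 1584 bp in 2-cell embryos, 524 and 435 bp in 4-cell embryos, 474 and 528 bp in 8-cell embryos, 1785 and 2042 bp in morulae and 1614 and 1707 bp in blastocysts. The upper end held 5567 and 4379 bp of the GV length and 1667 and 2968 bp of the MII length, but 0 bp in every library from the 4-cell stage to the blastocyst. All of the later length belonged to a peak at the SSBP1 end, where the lncRNA also has its lower end, which 16 of 18 libraries had, with a fold of 10.3 and 9.65 in morulae. SSBP1 encodes a mitochondrial DNA-binding protein. The upper end of the lncRNA had a peak within 500 bp in 9 of 18 libraries, among them 2 of 2 GV, MII and 2-cell libraries each and none from the 4-cell stage to the blastocyst in the stage series, so the upper-end peaks cannot be told apart by gene. No library had a peak within 500 bp of the lower end of WEE2 itself. WEE2 changed by -4041.5 ± 810 bp in blastocysts relative to GV oocytes (adjusted p = 0.00178).

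MOS, the kinase that activates the MAP kinase cascade and holds the egg at metaphase II, had 1383 and 1539 bp in GV oocytes, 2359 and 2277 bp in MII oocytes, 1974 and 4511 bp in 1-cell embryos, 4641 and 4981 bp in 2-cell embryos, 2088 and 1061 bp in 4-cell embryos, 701 and 1611 bp in 8-cell embryos, 1021 and 1479 bp in morulae and 1306 and 1067 bp in blastocysts. Both 2-cell libraries lay above every other library of the stage series. One MOS peak reached from -522 to 4458 bp in 2-cell replicate 2, across the whole gene. In blastocysts the gene body held only a narrow peak (39 to 522 bp and 157 to 572 bp), and a second peak lay outside it (-3440 to -2619 bp and -3407 to -2757 bp).

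ZAR1, an RNA-binding protein that keeps maternal mRNA untranslated, was the gene with a peak within 500 bp of its own lower end in all 18 libraries. It had 7551 and 6184 bp in GV oocytes, 1178 and 2941 bp in MII oocytes, 8369 and 6774 bp in 1-cell embryos, 5971 and 4759 bp in 2-cell embryos, 1319 and 1397 bp in 4-cell embryos, 1186 and 1363 bp in 8-cell embryos, 1880 and 1879 bp in morulae and 1608 and 1448 bp in blastocysts. The 6 GV, 1-cell and 2-cell libraries lay above the other 10 stage libraries. From 4-cell to blastocyst each library had a single ZAR1 peak, at -282 to 1036 bp in 4-cell replicate 1 and -369 to 1078 bp in blastocyst replicate 2. Its upper end was covered in 2 of 2 GV, 1-cell and 2-cell libraries each, 1 of 2 MII libraries and no stage library after that.

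BTG4, the adaptor that brings the CCR4-NOT deadenylase to maternal mRNA, had its lowest stage means in the oocytes. It had 1123 and 800 bp in GV oocytes, 374 and 1608 bp in MII oocytes, 4648 and 3714 bp in 1-cell embryos, 2897 and 1612 bp in 2-cell embryos, 1942 and 1611 bp in 4-cell embryos, 2698 and 2963 bp in 8-cell embryos, 4608 and 4140 bp in morulae and 3119 and 3892 bp in blastocysts. The lower end of BTG4 had no H3K4me3 peak within 500 bp in any library, and the C9H11orf88 end had one in all 18, with MIR34C-1 next to it. The upper end of BTG4 itself had one within 500 bp in 7 of 18 libraries, among them 2 of 2 1-cell and 2 of 2 4-cell libraries. No GV, MII, 8-cell or blastocyst library had one there. BTG4 rose by 2514.5 ± 752 bp in blastocysts (3505.5 ± 547 bp, SD) relative to MII oocytes (991 ± 873 bp; adjusted p = 0.0145). Counting only bases nearest to a BTG4 end left a difference of 339 bp (adjusted p = 0.559).

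**Figure D2:**
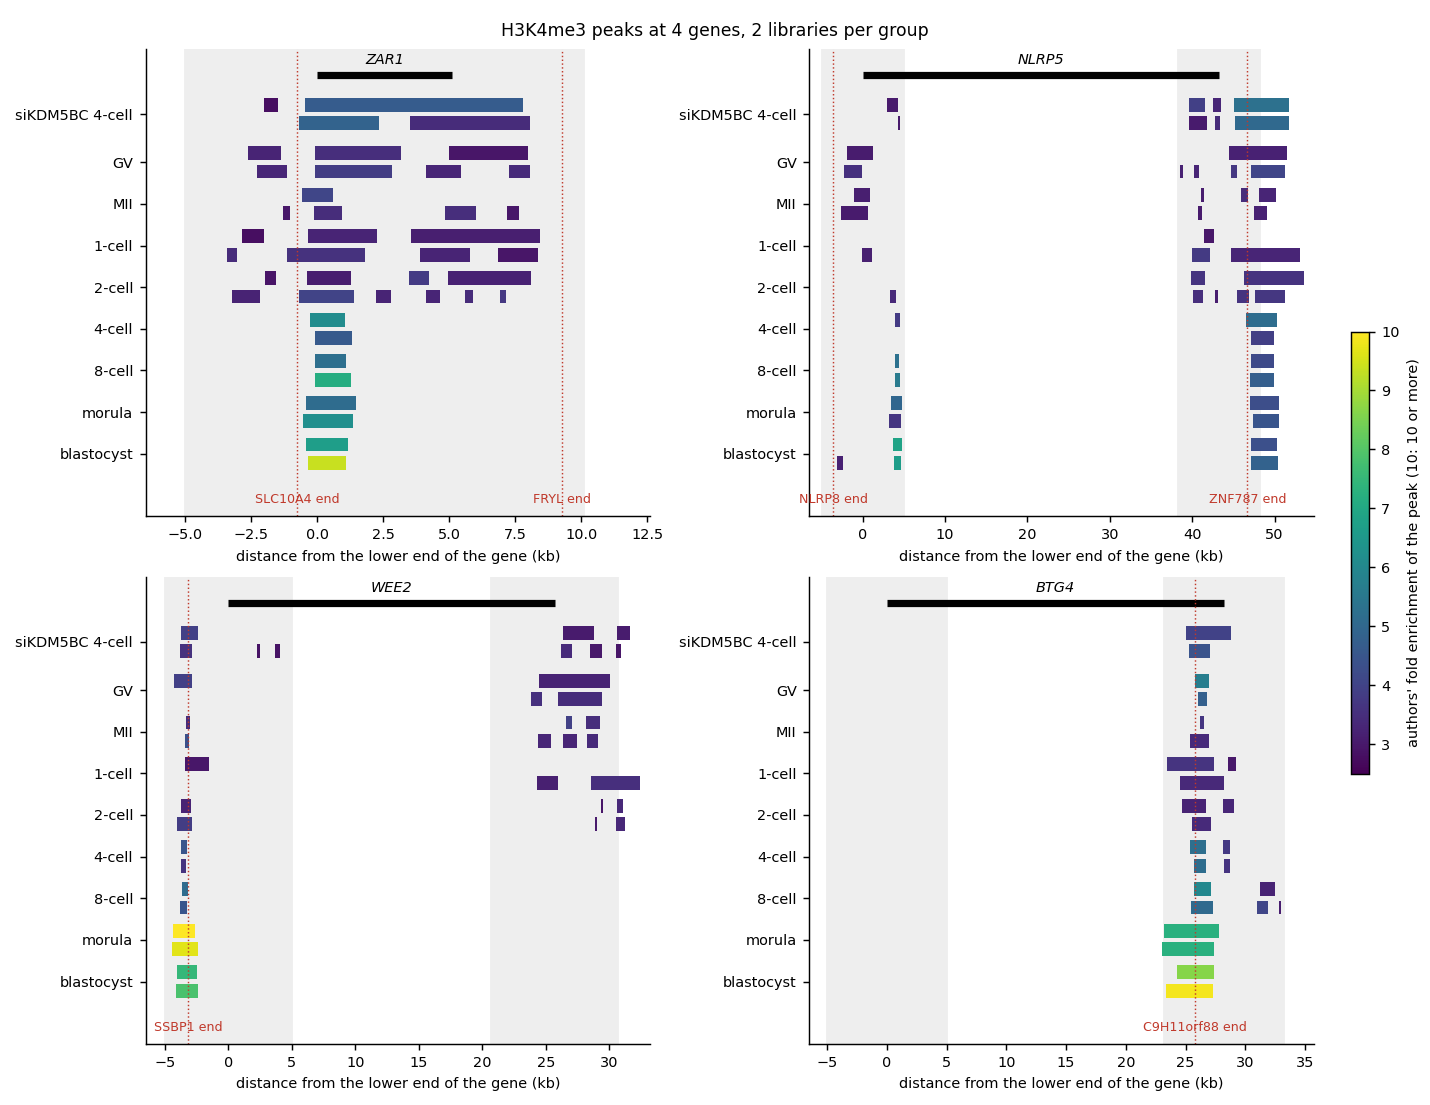
H3K4me3 peaks of both libraries of each group at ZAR1, NLRP5, WEE2 and BTG4, drawn to scale against the distance in kb from the lower end of the gene (black bar). Grey bands are the 5 kb windows, dotted lines the ends of other coding genes, and colour the authors' fold enrichment. ZAR1 narrows to 1 peak from the 4-cell stage on, the WEE2 peaks at its upper end are missing from 4-cell to blastocyst, and every library has a peak at the C9H11orf88 end in the BTG4 panel.

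At fertilisation, 1-cell embryos relative to MII oocytes, 4 of 8 genes rose (13.1% of all genes tested rose) and NLRP9 fell (1.35% fell). ZAR1 rose by 5512 ± 921 bp (adjusted p = 0.00338), TLE6 by 4460 ± 1176 bp (adjusted p = 0.0230), BTG4 by 3190 ± 752 bp (adjusted p = 0.0150) and PADI6 by 2590.5 ± 707 bp (adjusted p = 0.0264). The median difference was 1757.5 bp over the 8 genes and 908 bp over all genes. ZAR1 passed with each library left out in turn. Without MII replicate 1, BTG4, PADI6 and TLE6 missed the threshold (adjusted p = 0.132, 0.233 and 0.127), without MII replicate 2, NLRP9 and TLE6 did (adjusted p = 0.134 and 0.0745), and without 1-cell replicate 2, NLRP9, PADI6 and TLE6 did (adjusted p = 0.113, 0.0538 and 0.171), while without 1-cell replicate 1 NLRP5 also rose (adjusted p = 0.0283). With only the bases nearest to its own ends, BTG4 had a difference of 1144.5 bp and missed the threshold (adjusted p = 0.0917). Scaled to equal covered length, the same number of genes passed, and over all genes 1869 rose and 764 fell, against 2385 and 246 without scaling. NLRP5, WEE2 and MOS did not pass, with differences of 257.5, 166 and 924.5 bp.

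At the 4-cell stage, when the pig genome is activated, 4 of 8 genes fell relative to 2-cell embryos, as did 12.5% of all genes tested. TLE6 averaged 364 ± 515 bp in 4-cell embryos and 6035 ± 858 bp in 2-cell embryos (SD, n = 2 each; difference -5671 ± 1176 bp, limma adjusted p = 0.00868). ZAR1 averaged 1358 ± 55.2 bp in 4-cell embryos and 5365 ± 857 bp in 2-cell embryos (limma adjusted p = 0.0136). PADI6 averaged 476 ± 673 bp in 4-cell embryos and 3694.5 ± 1750 bp in 2-cell embryos (limma adjusted p = 0.0110), and MOS averaged 1574.5 ± 726 bp in 4-cell embryos and 4811 ± 240.4 bp in 2-cell embryos (limma adjusted p = 0.0288). Both 4-cell libraries lay below both 2-cell libraries at 6 of the 8 genes (50.4% of all genes), the 4 that fell and also NLRP5 and WEE2. NLRP5, NLRP9, WEE2 and BTG4 did not pass (adjusted p = 0.303, 0.723, 0.536 and 0.754). The median difference was -2732 bp over the 8 genes and -945.5 bp over all genes.

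Peaks with a −log10 q of 3 or more covered 29.4 and 12.2 Mb in 4-cell libraries, against 0.762 and 1.22 Mb in 2-cell libraries, and none of the 8 genes had such a peak in a 2-cell library. With these peaks alone ZAR1 and MOS turned to differences of 1358 and 1219.5 bp (adjusted p = 0.406 and 0.281), and with peaks of fold 3.5 or more none of the 8 passed limma (0 with an unadjusted p under 0.05). With 2.5 kb windows TLE6 and PADI6 did not pass (-1386 and -1059 bp, adjusted p = 0.374 and 0.353), and with only the bases nearest to its own ends ZAR1 did not (-2638 bp, adjusted p = 0.0511). With peaks under 3 kb apart joined, MOS did not (adjusted p = 0.0682). The 4-cell libraries covered 56.4 and 31.6 Mb in all, against 128 and 108 Mb in the 2-cell libraries. Scaled to equal covered length, TLE6 was the 1 gene that still fell (-4641 bp, adjusted p = 0.00192), and over all genes 4763 rose and 628 fell, against 32 and 2278 without scaling. The calls also rested on single libraries. None of the 8 passed limma without 2-cell replicate 1 or without 4-cell replicate 2, although 4 had an unadjusted p under 0.05 each time, and TLE6 alone passed without 4-cell replicate 1.

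Between the ends of the series, 3 of 8 genes fell in blastocysts relative to GV oocytes (4.76% of all genes fell) and BTG4 rose (22.5% rose). The genes that fell were ZAR1 (-5339.5 bp), WEE2 (-4041.5 bp) and NLRP9 (-2233.5 bp; adjusted p = 0.000559, 0.00178 and 7.6e-05), and these 3 passed with each library left out in turn. BTG4 missed the threshold without blastocyst replicate 1, blastocyst replicate 2 or GV replicate 2 (adjusted p = 0.0512, 0.15 and 0.0929). With only the bases nearest to each gene's own ends, BTG4 differed by 339.5 bp and did not pass (adjusted p = 0.621), and NLRP5 also fell (-2375 bp, adjusted p = 0.0240). Scaled to equal covered length, NLRP5 also fell (adjusted p = 0.00278) and BTG4 did not pass, and over all genes 2217 rose and 1675 fell, against 4106 and 867 without scaling. Relative to MII oocytes, NLRP9 fell (4.77% of all genes fell) and BTG4 rose (37.6% rose). The median difference from MII oocytes was -892.25 bp over the 8 genes and 1291.5 bp over all genes. BTG4 did not pass without MII replicate 1 or without blastocyst replicate 2 (adjusted p = 0.132 and 0.111), nor with scaling to equal covered length (adjusted p = 0.181), which gave 4135 genes that rose and 1619 that fell, against 6851 and 869 without it. Of the GV to MII step, none of the 8 passed limma (3 with an unadjusted p under 0.05), where 0.0384% of all genes did. Lengths of 5 of the 8 were lower in both MII libraries than in both GV libraries, as at 36.7% of all genes. No gene of the 8 passed limma in 2-cell against 1-cell (2 with an unadjusted p under 0.05), where 0.0768% of all genes did. None passed in 8-cell against 4-cell, morula against 8-cell or blastocyst against morula either (0 with an unadjusted p under 0.05 each), where 1.82%, 19.7% and 3.29% of all genes did.

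The siKDM5BC comparison asked how H3K4me3 of embryos labelled as a knockdown of KDM5B and KDM5C differs from that of 4-cell embryos of the stage series. Both enzymes remove methyl groups from H3K4. In siKDM5BC embryos 5 of 8 genes rose, and 39.4% of all genes tested rose. ZAR1 had 8799 and 7569 bp in siKDM5BC embryos, against 1319 and 1397 bp in 4-cell embryos. The difference of 6826 ± 921 bp (adjusted p = 0.000141) ranked 1520th of 18229 genes. A single ZAR1 peak of siKDM5BC replicate 1 ran from -477 to 7792 bp, over the whole gene and past its upper end.

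TLE6 had 4735 and 6598 bp in siKDM5BC embryos, against 728 and 0 bp in 4-cell embryos (difference 5302.5 ± 1176 bp, adjusted p = 0.00308). NLRP5 had 7269 and 6094 bp in siKDM5BC embryos, against 2441 and 1092 bp in 4-cell embryos (4915 ± 1366 bp, adjusted p = 0.0111). Most of the NLRP5 length in siKDM5BC embryos, 5976 and 5798 bp, lay at its upper end beside ZNF787, and its lower end had no peak within 500 bp in them. The upper end of NLRP5 itself had a peak within 500 bp in 2 of 2 siKDM5BC and 0 of 2 4-cell libraries. Bases nearest to its own ends came to 4088 and 3027 bp in siKDM5BC embryos, against 681 and 0 bp in 4-cell embryos. MOS had 3660 and 6431 bp in siKDM5BC embryos, against 2088 and 1061 bp in 4-cell embryos (3471 ± 892 bp, adjusted p = 0.00727). WEE2 had 3833 and 3685 bp in siKDM5BC embryos, against 524 and 435 bp in 4-cell embryos (3279.5 ± 810 bp, adjusted p = 0.00573). At WEE2 the upper end held 2499 and 2068 bp in siKDM5BC embryos and none in 4-cell embryos. Both groups were apart at these 5 genes, as at 75.7% of all genes.

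The other 3 genes did not pass. BTG4 had 3705 and 1819 bp in siKDM5BC embryos, against 1942 and 1611 bp in 4-cell embryos (985.5 ± 752 bp, adjusted p = 0.303). PADI6 had 855 and 2203 bp in siKDM5BC embryos, against 0 and 952 bp in 4-cell embryos (1053 ± 707 bp, adjusted p = 0.242). NLRP9 had 558 and 907 bp in siKDM5BC embryos, against 705 and 0 bp in 4-cell embryos (380 ± 304 bp, adjusted p = 0.326). The libraries overlapped at all 3. With only the bases nearest to each gene's own ends, the same 5 genes passed (adjusted p from 0.000315 for ZAR1 to 0.0230 for WEE2).

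**Figure D3:**
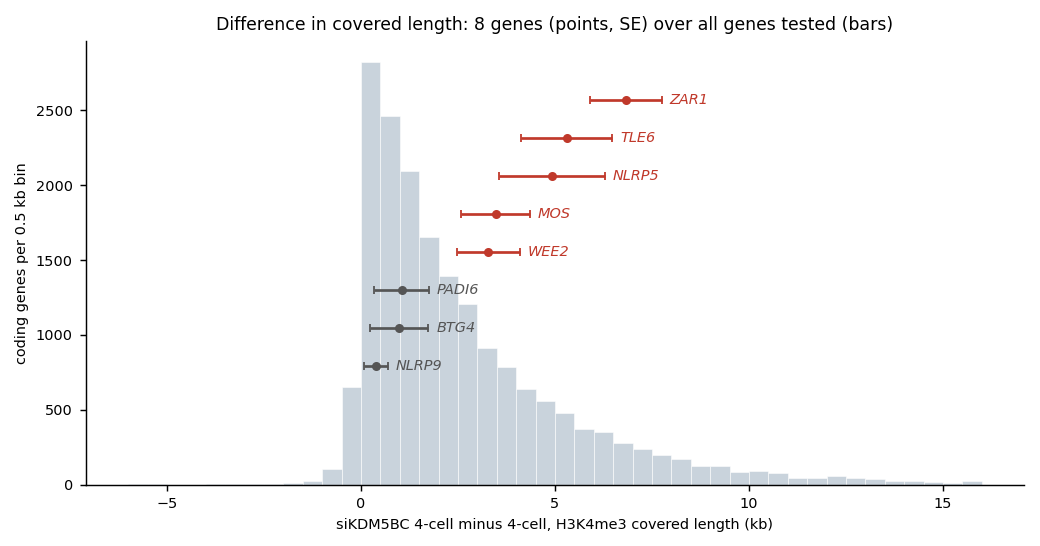
Difference in H3K4me3 covered length, siKDM5BC 4-cell minus 4-cell, in kb on the horizontal axis. Bars count all 18229 coding genes tested per 0.5 kb, with values beyond the axis put in the last bin, and points with SE bars show the 8 genes (red where they passed limma, grey where not). ZAR1 lies at 6826 bp and NLRP9 at 380 bp, and the median of all genes is 1768.5 bp.

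The summed length over the 8 genes was 33414 and 35306 bp in siKDM5BC embryos, against 9747 and 6548 bp in 4-cell embryos. This is a difference of 26212 bp, and the exact two-sided permutation test gave p = 0.333, the smallest that 2 libraries against 2 allow. The ratio of the mean sums was 4.22, beside 3.90 for the covered length of the whole libraries (179 and 164 Mb in siKDM5BC, against 56.4 and 31.6 Mb in 4-cell). The weakest peak kept in a list had a fold of 2.70 and 2.86 in siKDM5BC libraries, against 3.11 and 3.31 in 4-cell libraries. The siKDM5BC lists held 1246 and 1114 peaks outside chromosomes 1 to 18 and X, against 4 to 53 in the other H3K4me3 lists. The part of these differences between the lists in the result was not tested.

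Scaled to equal covered length, TLE6 was the 1 gene of the 8 that rose (2796 bp, adjusted p = 0.0271), NLRP5, NLRP9, BTG4, MOS and PADI6 turned to lower values, and over all genes 551 rose and 5304 fell, against 7184 and 13 without scaling. Without 4-cell replicate 2 only ZAR1 and TLE6 passed (adjusted p = 0.00365 and 0.0410). MOS missed the threshold without siKDM5BC replicate 2 (adjusted p = 0.0929) and NLRP5 without siKDM5BC replicate 1 (adjusted p = 0.0854). With peaks of fold 3.5 or more, ZAR1 and MOS passed, and with peaks of −log10 q of 3 or more, TLE6 and WEE2 did not (adjusted p = 0.533 and 0.532).

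Peak height was compared by the authors' fold of the highest peak at each gene. The authors' fold is enrichment over the caller's background. The median of each gene's highest fold was 3.51 and 3.88 in GV oocytes, 3.42 and 3.49 in MII oocytes, 3.25 and 3.499 in 1-cell embryos and 3.43 and 3.68 in 2-cell embryos. It was 5.16 and 4.25 in 4-cell embryos, 5.24 and 5.32 in 8-cell embryos, 5.73 and 5.48 in morulae and 6.77 and 7.24 in blastocysts, over the 6 or 7 genes with a peak. The same median over all coding genes with a peak was 4.31 and 4.02 in GV oocytes, 3.495 and 3.56 in MII oocytes, 9.16 and 8.21 in morulae, 8.98 and 9.39 in blastocysts and 4.52 and 4.40 in siKDM5BC embryos, above that of the 8 genes in these 10 libraries. Over all coding genes it was 3.16 and 3.51 in 1-cell, 3.53 and 3.676 in 2-cell and 5.005 and 5.55 in 8-cell embryos. At these stages and the 4-cell stage, neither median was the higher in both libraries. Single genes did not all follow the median: WEE2 had 10.3 and 9.65 in morulae, at the SSBP1 end, and BTG4 had 9.88 in blastocyst replicate 2. TLE6 had 4.74 and 4.61 in morulae and 4.83 and 4.66 in blastocysts. In siKDM5BC embryos the median was 3.95 and 3.99 over 8 genes with a peak, against 5.16 over 7 genes and 4.25 over 6 genes in 4-cell embryos, where genes without a peak drop out, and over all coding genes it was 4.52 and 4.40 in siKDM5BC embryos, against 4.90 and 4.43 in 4-cell embryos. No test was run on these ratios, which come from separate peak callings.

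**Figure D4:**
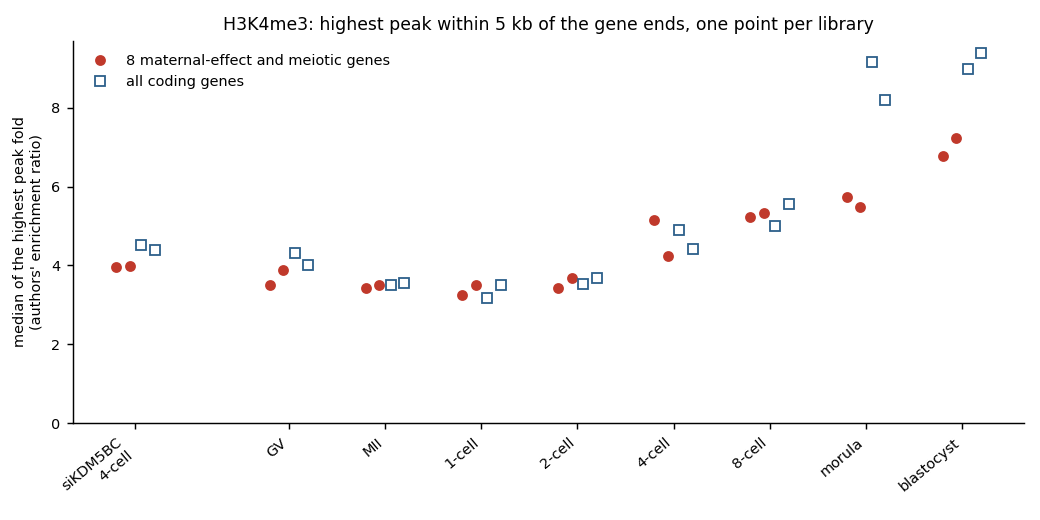
Median of the highest authors' fold enrichment within 5 kb of the gene ends, one point per H3K4me3 library, for the 8 genes (red circles) and for all coding genes with a peak (open squares). The 8 genes reach 6.77 and 7.24 in blastocysts, where all coding genes reach 8.98 and 9.39.

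H3K27me3 was scarce at the 8 genes until the blastocyst. Of the 10 libraries from MII oocyte to morula, none had peaks in the windows of more than 2 of the genes, and both 2-cell libraries had none there. The 2-cell libraries covered only 2.01 and 1.28 Mb in all. Blastocyst replicate 1 had peaks in the windows of 4 genes and replicate 2 in those of 7. A peak in both blastocyst libraries was found at 4 of the 8 genes and at 32.5% of all coding genes. The fit took genes with a peak in at least 2 of the 12 libraries. NLRP9 and WEE2 were left out by this, and ZAR1, MOS, NLRP5 and PADI6 would not have met it without their blastocyst peaks, so their values are given as a description without a test. BTG4 and TLE6 met it through other stages as well.

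ZAR1 had 2791 and 2027 bp of H3K27me3 in blastocysts, against 0 and 0 bp in morulae and in every other library. MOS had 985 and 1242 bp in blastocysts, against 0 and 0 bp in morulae and in every other library. These 2 were the genes with the mark in both blastocyst libraries and in no other library, a pattern chosen after the values were seen and present at 6.04% of coding genes. NLRP5 had 508 and 360 bp in blastocysts, against 0 and 0 bp in morulae, all of it near the NLRP8 end. Its 1 other H3K27me3 peak in the windows was of 201 bp in 4-cell replicate 2. Over the whole gene with 5 kb on each side, NLRP5 had 3465 bp in 4-cell replicate 2 and 321 bp in 2-cell replicate 1.

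BTG4 had 1689 and 1889 bp in blastocysts, against 0 and 0 bp in morulae (difference 1789 ± 370 bp, limma adjusted p = 0.00485). It rose in this comparison, as did 44.2% of the 10519 genes tested. At earlier stages BTG4 had 240 and 0 bp in MII oocytes, 302 and 956 bp in 4-cell embryos and 0 and 1107 bp in 8-cell embryos. Over the 6 stages BTG4 varied by the limma F (adjusted p = 0.0195), as did 58.2% of all genes tested. Without a filter on genes none of the 8 passed that F (BTG4 adjusted p = 0.900, and 2 of the 8 genes with an unadjusted p under 0.05), and BTG4 also missed it without blastocyst replicate 1 or replicate 2 (adjusted p = 0.0698 and 0.105).

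Within the windows, the remaining genes had H3K27me3 in single libraries of a group. PADI6 had 0 and 918 bp in blastocysts and 964 and 0 bp in MII oocytes. Over the whole gene with 5 kb on each side, PADI6 had 486 and 918 bp in blastocysts, 1604 bp in 4-cell replicate 1 and 214 bp in morula replicate 2. TLE6 had 0 and 1491 bp in 8-cell embryos, 221 and 0 bp in morulae and 0 and 895 bp in blastocysts. NLRP9 had 0 and 384 bp in blastocysts, and WEE2 had 309 and 0 bp in 8-cell embryos. Whole libraries covered 84.7 and 109 Mb in blastocysts, against 10.8 and 13.6 Mb in morulae. Scaled to equal covered length, BTG4 did not pass in blastocysts relative to morulae (adjusted p = 0.297), and over all genes 1635 rose and 532 fell, against 4650 and 6 without scaling. A −log10 q of 3 was reached by the ZAR1 peak of blastocyst replicate 2 and the MOS peak of blastocyst replicate 1, and by no other H3K27me3 peak in the windows of the 8 genes.

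**Figure D5:**
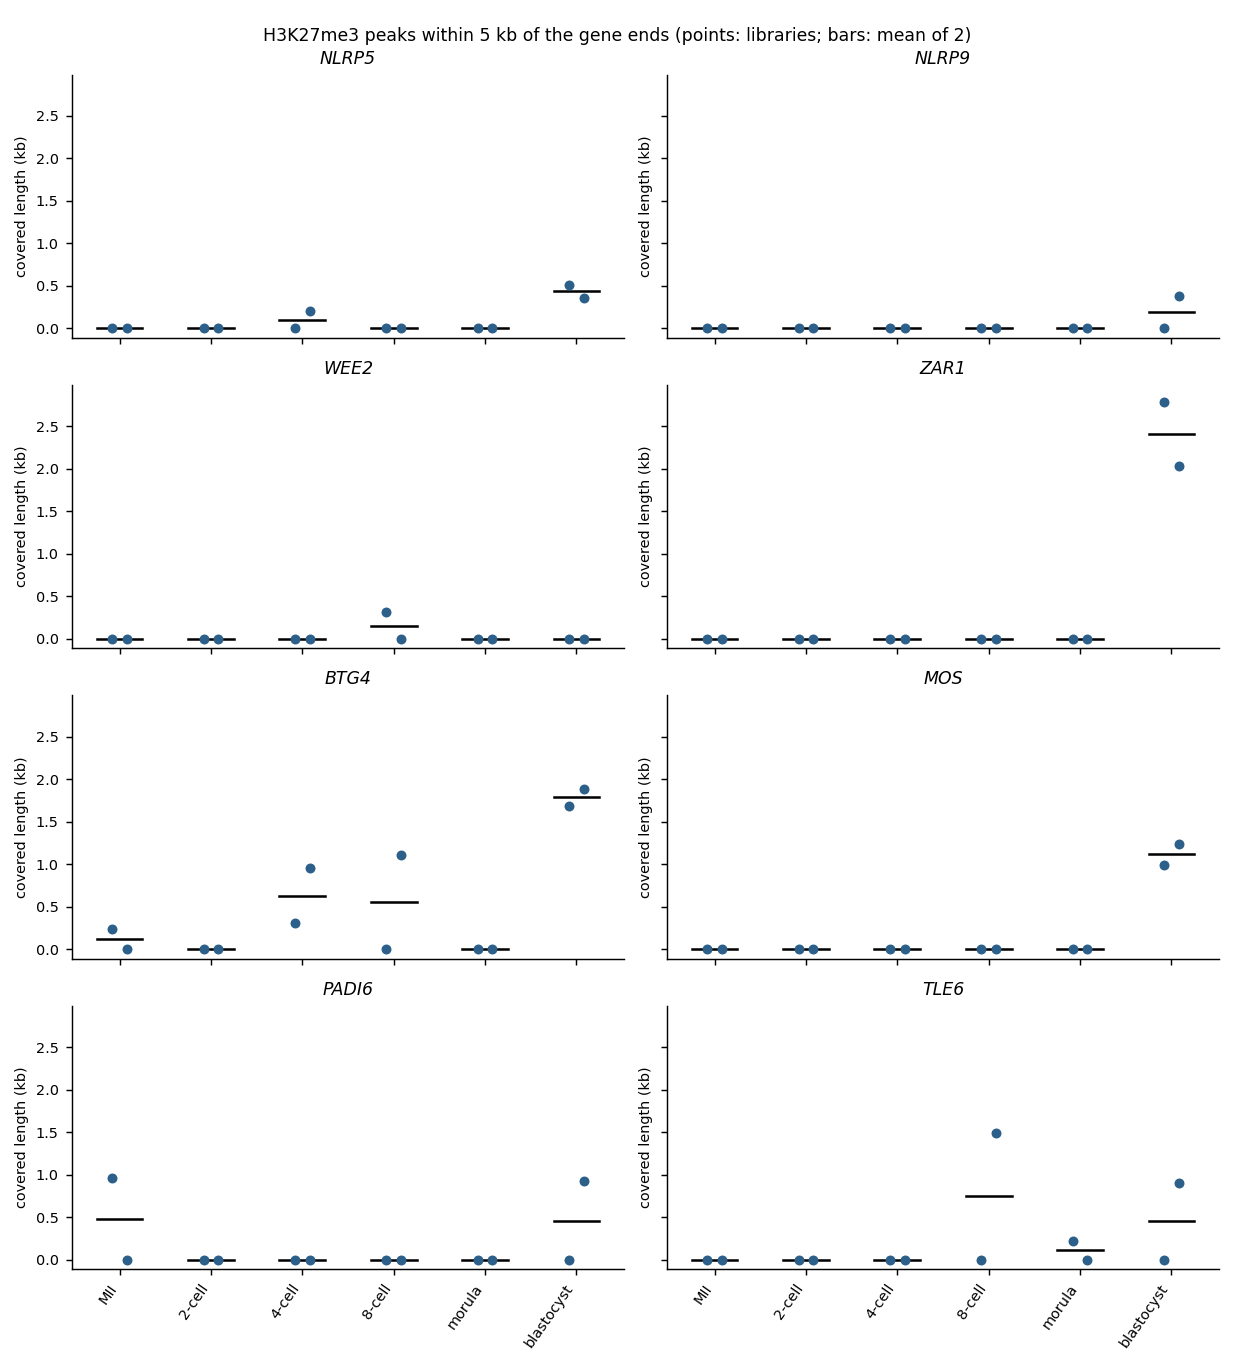
H3K27me3 covered length in kb within 5 kb of the gene ends, for each of the 8 genes and each library (points) from MII oocyte to blastocyst, with the mean of 2 libraries as a bar and one vertical scale for all panels. ZAR1 (2791 and 2027 bp) and MOS (985 and 1242 bp) have H3K27me3 only in blastocysts.

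In blastocysts both marks shared sequence at some of these genes. At ZAR1 866 to 1577 bp was covered by both marks over the 4 pairings of an H3K4me3 with an H3K27me3 library, around the lower end of the gene. At MOS the shared length was 416 to 484 bp, within the gene, and at BTG4 250 to 342 bp, at the upper edge of the C9H11orf88 peak. TLE6 shared 895 bp in the 2 pairings with blastocyst H3K27me3 replicate 2 and 0 bp in the other two, and NLRP5 shared 0, 0, 242 and 342 bp. WEE2, NLRP9 and PADI6 shared none. Pools of embryos do not show whether both marks were in the same cells.

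Other genes of the same pathways were counted in siKDM5BC relative to 4-cell embryos, where 39.4% of all genes tested rose and 13 of 18229 fell. Of 13 further subcortical maternal complex and NLRP genes tested, 8 rose, among them NLRP2, at 5880 bp in siKDM5BC against 61.5 bp in 4-cell embryos (adjusted p = 6.67e-05), and NLRP12, at 6028.5 against 1415.5 bp (adjusted p = 0.00174). Of 27 kinases and regulators of meiotic arrest and maturation, 15 rose, among them GPR3, the receptor that keeps cAMP high in the arrested oocyte (8295 bp in siKDM5BC, 1498 bp in 4-cell, adjusted p = 0.00638), and AURKB, a kinase of the chromosomal passenger complex (7927.5 and 2858.5 bp, adjusted p = 0.00239). Of 24 genes of maternal mRNA storage, translation and decay, 6 rose, among them PABPN1L (14868 bp in siKDM5BC, 2131.5 bp in 4-cell, adjusted p = 0.000138) and YBX2, an RNA-binding protein of germ cells (8460.5 and 2913.5 bp, adjusted p = 0.00429). Of 23 other maternal-effect genes 5 rose, and of 22 meiotic prophase genes 7 rose, among them SYCE3, a synaptonemal complex protein (12852 bp in siKDM5BC, 2613 bp in 4-cell, adjusted p = 0.000239). Their median differences were 2102.5, 2336, 1325, 1358 and 1022.5 bp in this order, beside 1768.5 bp over all genes. Of the marker lists, 10 of 15 trophectoderm and blastocyst markers rose, 3 of 8 oocyte identity markers, 3 of 8 sperm markers and 2 of 13 cumulus and granulosa cell markers, beside the 39.4% of all genes.

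For each of the 8 genes the 2 named coding genes with the most similar means over the 9 H3K4me3 groups were sought among all coding genes with peaks in at least 6 of 18 libraries and more than 100 kb away, and every such Pearson r was at least 0.963. All groups share the covered length of their libraries, so the r values are a description. NLRP9 was most like NDP (r = 0.990) and DRD2 (r = 0.974), and NDP averaged 157 bp in blastocysts and 6842 bp in GV oocytes. ZAR1 was most like BCL9 and APITD1, with 5121 and 8358 bp in siKDM5BC embryos and 955.5 and 2176 bp in 4-cell embryos. MOS was most like SCNN1G and SH2D2A (r = 0.989 each), PADI6 most like ARRDC5 and CBR3, and WEE2 most like EXT2 and DGKK. TLE6 was most like DYNLL2 and CDC42EP4, NLRP5 most like ZNF385D and SCUBE2, and BTG4 most like SELENOK and RNASE4, the last with 4904 bp in blastocysts and 248.5 bp in GV oocytes.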

How the data were processed

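ULI-NChIP-seq for H3K4me3 (18 libraries) and H3K27me3 (12 libraries) gave 1 list of broad peaks per library. Per the submitters' processing notes, Bowtie2 2.4.1, MACS2 and the build susScr11 were used, and the control, threshold and read filters are not given in the sources used here. In the deposited lists, positions are in bp, fold enrichment is a ratio over the caller's background, −log10 p and −log10 q are the authors' values, and a display score was not used. Gene positions came from the RefSeq annotation of Sscrofa11.1. Peaks on chromosomes 1 to 18 and X were merged and intersected with the joined 5 kb windows (Python 3.11.15, pandas 2.3.3). limma 3.58.1 (R 4.3.3), with trend and robust moderation and no replicate term, was fitted to bp over all genes with a peak in at least 2 libraries of the mark, two-sided, with BH adjustment per comparison at 0.05. It was also run on simulated lengths. These lacked the differences in covered length between the real libraries, so they do not show how limma behaves under them. Same-numbered libraries were not treated as pairs. Named genes were the 8 listed, the 2 most similar genes for each, and at most 3 per further list with the largest siKDM5BC differences. The 8 genes and the lists were chosen with earlier results of these data known. Alternatives covered windows, peak thresholds, joining, scaling, filter, moderation, samples in the fit, replicate block and each library left out. The lists give no depth, so no counting interval is given.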

Additional observations from a re-analysis of the deposited data

How the results depend on the processing

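The replicate block changed no count by more than 1.5 times: it left 5 genes in siKDM5BC against 4-cell, 4 in 4-cell against 2-cell, 3 in blastocyst against MII and 7 across the H3K4me3 stages, and likewise 5 in 1-cell against MII and 4 in blastocyst against GV. For H3K27me3 it left 4 across the stages and 4 in blastocyst against morula, where 4587 of 10519 genes tested passed. These include ZAR1, MOS and NLRP5, which were tested only through their blastocyst peaks. No H3K27me3 count in this section is support for these genes. The labels do not say that a number marks a shared batch, and same-numbered libraries deviated together with correlations from -0.275 to 0.358 (0.0625 between siKDM5BC and 4-cell). In siKDM5BC against 4-cell the 5 genes became 2 with peaks of fold 3.5 or more, 1 with lengths scaled to equal covered length, and 2 to 5 with 1 library left out. In 4-cell against 2-cell the 4 genes became 2 with 2.5 kb windows, 0 with peaks of −log10 q of 3 or more (limma, 1 with an unadjusted p under 0.05), 0 with fold 3.5 or more (0 unadjusted), 1 with scaling, and 0 to 3 with 1 library left out. In blastocyst against MII the 2 genes became 4 with 2.5 kb windows (3 lower, 1 higher), 1 with 10 kb windows, 4 with −log10 q of 3 or more (all higher), and 1 to 2 with 1 library left out. Across the 8 stages the 7 genes became 4 with −log10 q of 3 or more, 3 with fold 3.5 or more, and 6 to 8 with 1 library left out. Across the H3K27me3 stages the 4 genes became 0 with −log10 q of 3 or more, where none could be tested, 2 with fold 3.5 or more, 2 with scaling and 0 without a filter on genes (2 unadjusted). Counts with 1 blastocyst library left out are not given, because ZAR1 and MOS then fall below the filter. The summed difference of 26212 bp became 18378 bp with 2.5 kb windows, 35195 bp with 10 kb windows, 23414 bp at the end with more cover, 13590 bp with −log10 q of 3 or more, 11858 bp with fold 3.5 or more, 34074 bp with peaks under 3 kb apart joined, 21980 bp with the nearest-end rule, 1132 bp with scaling (exact permutation p = 0.667), and 24613 to 27812 bp with 1 library left out. In 1-cell against MII the 5 genes became 4 by nearest end and stayed 5 with scaling. In blastocyst against GV, 4 passed under each of these settings, all lower. For H3K27me3 in blastocyst against morula the 4 became 2 with scaling. Without blastocyst replicate 1 or replicate 2, ZAR1 and MOS fell below the filter of 2 libraries and were not tested, and BTG4 differed by 1889 and 1689 bp. Over all genes, 7197 calls in siKDM5BC against 4-cell became 2801 (without 4-cell replicate 2) to 8719 (10 kb windows), 2310 in 4-cell against 2-cell became 19 (fold 3.5 or more) to 5391 (scaling), 7720 in blastocyst against MII became 5058 (without blastocyst replicate 2) to 13422 (−log10 q of 3 or more), and 6127 across the H3K27me3 stages became 518 (no filter) to 7987 (10 kb windows). The cause of these changes was not tested.

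Single genes that turned direction did so as follows, in bp. In siKDM5BC minus 4-cell, scaling gave NLRP5 -5.05, NLRP9 -201.3, BTG4 -2790, MOS -572 and PADI6 -620.02, fold 3.5 or more gave PADI6 -198, and joined peaks gave BTG4 -444. In 4-cell minus 2-cell, −log10 q of 3 or more gave NLRP5 880, WEE2 262, ZAR1 1358, BTG4 1223.5 and MOS 1219.5, scaling gave NLRP5 457 and BTG4 2492, and BTG4 was 1776.5 with fold 3.5 or more, 239 with joined peaks, 7.5 by nearest end and 164.5 without 2-cell replicate 1 (-1120.5 without replicate 2), while NLRP9 was -141.5 without 4-cell replicate 1 and 563.5 without replicate 2. In blastocyst minus MII, −log10 q of 3 or more gave NLRP5 2012, WEE2 1515.5, ZAR1 1528 and MOS 736.5, fold 3.5 or more gave NLRP5 2012, WEE2 1251.5, ZAR1 939 and MOS 328.5, 10 kb windows gave WEE2 199, and leaving out MII replicate 2 gave ZAR1 350 (-1413 without replicate 1). In 1-cell minus MII, NLRP5 was -100.5 by nearest end, -1488 with scaling and -2691 to 3206 with 1 library left out, WEE2 was -680 by nearest end, -565 with scaling and -819.5 to 1151.5 with 1 library left out, and MOS was -344 to 2193 with 1 library left out. For H3K27me3 in blastocyst minus morula, TLE6 was -225 with scaling and -110.5 to 784.5 with 1 library left out. Windows at the gene start alone were not run, because no strand was given. Of the 4 genes in the H3K27me3 counts, ZAR1, MOS and NLRP5 would not have been tested without their blastocyst peaks, so these counts are no support for them. Nearest-end values and all alternatives for 1-cell against MII, blastocyst against GV and H3K27me3 in blastocyst against morula were added after the data were seen. With 2 libraries a group, a left-out library assumes that the lone one varies like the others.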
